A study of Mus musculus with 12 samples.

Results

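The genes described here are the tumor necrosis factor (TNF) and TNF receptor superfamilies, measured by RNA-seq in mouse MC38 tumors and in bone-marrow-derived macrophages (BMDM). Members were taken by gene symbol: every Tnfsf or Tnfrsf gene followed by a number, plus Tnf, Lta, Ltb, Ltbr, Fas, Fasl, Cd40, Cd40lg, Cd27, Cd70, Edar and Ngfr. This gave 43 members of 22274 genes in the tumor table and 33 of 19496 in the BMDM table. Of the 44 members in either table, 17 are ligands, 26 are receptors and 1 is a non-coding transcript (Tnfsf13os), and 32 stand in both tables. Tnfsf10, Tnfsf11, Cd40lg, Cd70, Tnfrsf21, Tnfrsf11b, Tnfrsf17, Tnfrsf19, Cd27, Edar and Ngfr were not analysed here in BMDM.

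The 12 libraries fall into 4 groups of 3. MC38 is a colon adenocarcinoma line of C57BL/6 origin. The shChrebp tumors grew from MC38 cells with a short hairpin against Chrebp (gene symbol Mlxipl), a glucose-responsive transcription factor, and are labelled Chrebp knockdown. The shCtrl tumors carried a control hairpin and are labelled WT. Both were grown under the flank skin of C57BL/6 mice, whose age is not given, nor is the number of hairpins or clones. Choline BMDM received LPS and interferon-γ for 4 h and then 200 µM choline for 24 h. PBS BMDM are labelled as PBS-treated, and whether they were primed in the same way is not stated for them separately. Nothing in the labels ties a replicate to its own animal or culture, so each p-value reflects the spread of these libraries alone, which could be technical.

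Ligands of the family are mostly trimeric membrane proteins that can be cut off the cell surface, and each binds 1 or more receptors. Receptors with a death domain (TNFR1, Fas, the TRAIL receptors) can recruit FADD and caspase-8 and so start cell death, while receptors without one bind TRAF adaptors and activate NF-κB and MAP kinases. Decoy receptors bind ligand without a full signalling tail. In tumors these pairs couple tumor cells, macrophages and lymphocytes, and several, such as 4-1BB and CD40, costimulate T cells or license antigen-presenting cells. Macrophages exposed to LPS are a main source of TNF.

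Tumor libraries held 15844794 to 24181897 counts, and BMDM libraries 34960295 to 35393041 reads as recovered from their FPKM values (fragments per length of gene and sequencing depth). By its Ensembl identifier Mlxipl was at 1, 1 and 2 counts in shChrebp and at 3, 1 and 1 counts in shCtrl, too few to check the labels. The row that carries the symbol Mlxipl in the deposited table has the identifier of S1pr3 in the annotation, and held 190, 293 and 162 counts in shChrebp and 376, 431 and 501 counts in shCtrl, so the target could not be checked with certainty. In the tumor libraries 8 of 8 T cell markers, 5 of 5 endothelial markers, 7 of 9 macrophage markers and 3 of 5 neutrophil markers averaged under 1 FPKM, as did 2 of 6 fibroblast markers, and Cd3d, Cd3e, Cd8a, Ncr1 and Flt3 were at 0 in all 6 libraries. The macrophage markers summed to 10.8 to 12.5 FPKM in shChrebp and 22.0 to 23.0 FPKM in shCtrl. Cd68 alone was at 9.06, 9.83 and 8.99 FPKM in shChrebp and 19.1, 20.1 and 20.5 FPKM in shCtrl, while Lyz2 overlapped between the groups and Adgre1 was at or under 0.02 FPKM. One library stood apart, shCtrl 1, in which 6 epithelial markers summed to 29.4 FPKM. In BMDM the macrophage markers Adgre1 and Csf1r stood at 75.5 to 83.3 and 183 to 197 FPKM with choline and at 61.3 to 63.2 and 198 to 211 FPKM with PBS. Of the 9 macrophage markers 6 had values in BMDM, and 1 of these, Mrc1, was at or under 0.0107 FPKM. C1qa, C1qb and C1qc were not analysed here in BMDM.

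In shChrebp tumors 5 members were lower than in shCtrl tumors, and the largest differences were in Ngfr, Tnfsf15, Fas and Tnfrsf9. The lymphotoxin β receptor Ltbr and Fn14 (Tnfrsf12a) were higher by small amounts. Of 43 members, 19 had enough counts to be tested, about 0.582 CPM (counts scaled to library size) in at least 3 libraries. The edgeR quasi-likelihood test called 7 of these (adjusted p under 0.05), 2 higher and 5 lower. Of the 5, Fas reached the filter's limit in 3 shCtrl but 2 shChrebp libraries, so its shChrebp group alone would not have passed. Over all 11780 genes tested the share called was 38.2%, with 18.6% higher and 19.7% lower, so the members' share of 36.8% was near the background. A bulk sample cannot tell fewer cells of a type from less RNA per cell, and this holds for each tumor value below.

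**Figure D1:**
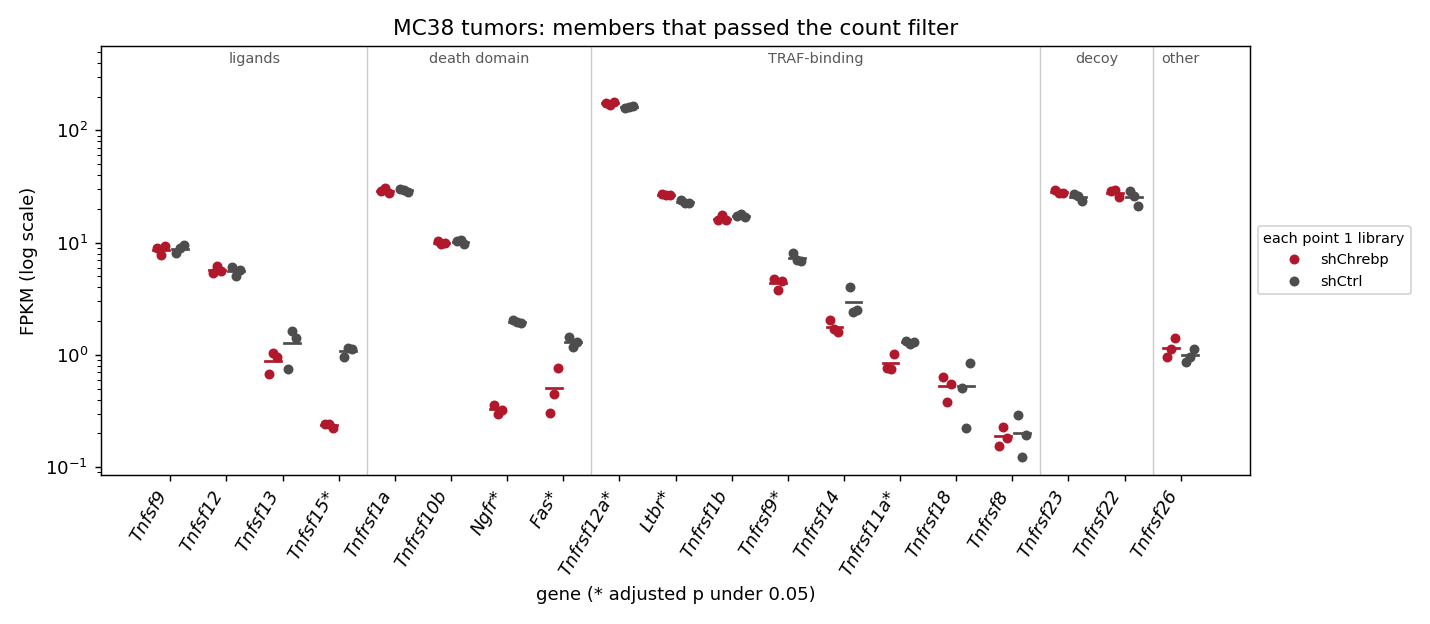
FPKM on a log scale of the 19 tested members in the 6 tumor libraries, shChrebp left of shCtrl, with each point 1 library and each line the mean of 3. An asterisk marks an adjusted p under 0.05: Ngfr and Tnfsf15 stand far apart between the groups, while Tnfrsf12a, at a mean of 174 FPKM in shChrebp and 161 FPKM in shCtrl, is the most abundant member.

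Most ligands were scarce in the tumors. Of 17 ligands, 13 averaged under 1 FPKM in both groups, and Cd40lg, Cd70, Tnfsf11 and Tnfsf4 had no count in any library. Tnf itself had 0, 0 and 1 counts in shChrebp and 1, 2 and 1 counts in shCtrl. The 4 tested ligands were Tnfsf9 (4-1BB ligand), Tnfsf12 (TWEAK), Tnfsf13 (APRIL) and Tnfsf15 (TL1A), and 1 of them was called.

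Tnfsf15 (ENSMUSG00000050395) encodes TL1A, a ligand made by endothelial and myeloid cells that costimulates T cells through the receptor DR3. It stood at 0.243, 0.242 and 0.225 FPKM in shChrebp, against 0.957, 1.16 and 1.12 FPKM in shCtrl. In counts these were 23, 28 and 21 in shChrebp and 82, 103 and 119 in shCtrl, so every shChrebp library lay under every shCtrl library. The log2 fold change was −2.24 ± 0.21 (SE), or 4.71-fold lower, with an edgeR adjusted p of 5.09e-10. Its receptor Tnfrsf25 (DR3) was under the count filter, at 29 counts summed over shChrebp and 20 over shCtrl, a ratio per total count of 1.29 (95% exact interval 0.706 to 2.41, counting error only). Endothelial markers summed to 0.413 to 0.727 FPKM in shChrebp and 0.795 to 1.13 FPKM in shCtrl, and their part in the Tnfsf15 difference was not tested.

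Tnfsf9 and Tnfsf12, the ligands with the highest levels in the tumors, were not called. Tnfsf9 averaged 8.65 FPKM in shChrebp and 8.87 FPKM in shCtrl, with a log2 fold change of −0.06 ± 0.11 (SE; edgeR adjusted p = 0.719). Tnfsf12, the ligand of Fn14, averaged 5.73 ± 0.438 FPKM in shChrebp and 5.62 ± 0.515 FPKM in shCtrl (SD, n = 3 each). Tnfsf13 averaged 0.892 and 1.27 FPKM in shChrebp and shCtrl, with libraries of the groups overlapping. The counts of Tnfsf12 and Tnfsf13 are not whole numbers. Both genes share exons with the readthrough gene Tnfsfm13, so how reads were divided among these genes is uncertain.

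Among receptors with a death domain, Ngfr and Fas fell and TNFR1 and the TRAIL receptor were not called. Ngfr (ENSMUSG00000000120) encodes p75, a low-affinity receptor for neurotrophins that marks neural-crest and mesenchymal cells and some tumor cells. It was at 0.359, 0.3 and 0.326 FPKM in shChrebp, against 2.05, 1.96 and 1.91 FPKM in shCtrl. The counts were 22, 25 and 18 in shChrebp and 112, 112 and 126 in shCtrl, with no overlap and little spread within either group. The log2 fold change was −2.59 ± 0.20 (SE), 6.03-fold lower, with an edgeR adjusted p of 6.93e-12, the smallest among the tumor members. Fibroblast markers summed to 155 to 156 FPKM in shChrebp and 183 to 188 FPKM in shCtrl, most of it Col1a2. The markers did not move together: Col1a2, Pdgfra and Dcn were lower in shChrebp without overlap and Pdgfrb higher without overlap. Lum and Thy1 stayed under 1 FPKM. The part of these markers in the Ngfr difference was not tested.

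Fas (ENSMUSG00000024778), the receptor through which Fas ligand kills target cells, had few counts in the tumors. It was at 0.304, 0.447 and 0.772 FPKM in shChrebp, against 1.45, 1.17 and 1.30 FPKM in shCtrl. The counts were 8, 16 and 15 in shChrebp and 34, 26 and 37 in shCtrl, so the groups did not overlap, though shChrebp 1 lay under the filter's limit, so that Fas was tested because of its shCtrl libraries. The log2 fold change was −1.47 ± 0.32 (SE; edgeR adjusted p = 0.00053). Its ligand Fasl had 2 counts in each group.

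Tnfrsf1a (TNFR1), the main receptor for soluble TNF, averaged 29.1 ± 1.42 FPKM in shChrebp and 29.2 ± 0.814 FPKM in shCtrl (SD, n = 3 each). Its log2 fold change was −0.02, with a 95% interval of −0.15 to 0.12. Tnfrsf10b, the mouse TRAIL death receptor, was at 10.3, 9.77 and 9.96 FPKM in shChrebp and 10.4, 10.5 and 9.71 FPKM in shCtrl, with an interval of −0.21 to 0.14 on the log2 scale. Both intervals use the fit's SE with 4 degrees of freedom.

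Among receptors that bind TRAF adaptors, Tnfrsf12a and Ltbr were higher and Tnfrsf9 and Tnfrsf11a lower. Tnfrsf12a (ENSMUSG00000023905), the injury- and growth factor-induced receptor for TWEAK, was at 175, 169 and 179 FPKM in shChrebp, against 158, 162 and 163 FPKM in shCtrl. The groups did not overlap, and the log2 fold change was 0.11 ± 0.04 (SE; edgeR adjusted p = 0.0184). This call was lost without shChrebp 3 (adjusted p = 0.071) and without shCtrl 2 (adjusted p = 0.0517). Ltbr (ENSMUSG00000030339), which switches on non-canonical NF-κB, was at 26.9, 26.8 and 26.9 FPKM in shChrebp, against 24.1, 22.6 and 22.3 FPKM in shCtrl. Its log2 fold change was 0.22 ± 0.05 (SE; edgeR adjusted p = 0.00115). Ltb, its ligand, had no count in shChrebp and 4 in shCtrl.

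Tnfrsf9 (ENSMUSG00000028965) encodes 4-1BB, an activation-induced costimulatory receptor best known on T and NK cells. It was at 4.78, 3.83 and 4.60 FPKM in shChrebp, against 8.13, 7.07 and 6.80 FPKM in shCtrl. All 3 shChrebp libraries lay below all 3 shCtrl libraries. The log2 fold change was −0.82 ± 0.12 (SE), 1.77-fold lower, with an edgeR adjusted p of 3.24e-06. Beside this level, T cell markers summed to 0.724 to 0.891 FPKM in shChrebp and 0.815 to 1.20 FPKM in shCtrl, with Cd3d, Cd3e and Cd8a at 0. NK cell markers summed to 1.82 to 2.16 FPKM in shChrebp and 1.68 to 2.03 FPKM in shCtrl, most of it Eomes, with Ncr1 at 0. The part of these markers in the Tnfrsf9 difference was not tested.

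Tnfrsf11a (ENSMUSG00000026321), or RANK, the receptor of the osteoclast factor RANKL, was at 0.772, 0.748 and 1.02 FPKM in shChrebp, against 1.33, 1.26 and 1.32 FPKM in shCtrl. The groups did not overlap, and the log2 fold change was −0.64 ± 0.15 (SE; edgeR adjusted p = 0.00135). RANKL (Tnfsf11) had no count in any tumor library. TNFR2 (Tnfrsf1b), the receptor that prefers membrane-bound TNF, averaged 16.4 FPKM in shChrebp and 17.4 FPKM in shCtrl and was not called (edgeR adjusted p = 0.0904). Tnfrsf14 (HVEM), a receptor of LIGHT, had 35, 32 and 28 counts in shChrebp and 39, 42 and 33 counts in shCtrl, and was not called either (edgeR adjusted p = 0.212). Its FPKM values of 2.07, 1.69 and 1.60 in shChrebp and 4.06, 2.43 and 2.49 in shCtrl set the groups further apart than its counts, and limma on log2(FPKM + 0.1) called it lower (adjusted p = 0.0353).

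Of the remaining tested receptors, Tnfrsf18 (GITR), Tnfrsf8 (CD30), Tnfrsf22, Tnfrsf23 and Tnfrsf26 were not called. Tnfrsf22 and Tnfrsf23 are neighbouring, near-identical mouse decoy receptors for TRAIL, at 28.0 and 28.2 FPKM in shChrebp and 25.5 and 25.6 FPKM in shCtrl. Their counts are not whole numbers, and how reads were shared out between both genes is uncertain.

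CD40, which licenses macrophages and dendritic cells when T cells show CD40 ligand, was under the filter. It had 0, 0 and 0 counts in shChrebp, against 6, 3 and 5 counts in shCtrl, which is at least 5.24-fold lower when the shChrebp group is set to a floor of 3 counts. That floor leaves out the error of the shCtrl counts, and with it the exact 95% upper limit of the ratio was 0.269. Tnfsf8, the CD30 ligand, likewise had no count in shChrebp and 3, 2 and 5 counts in shCtrl, at least 3.74-fold lower on the same floor, with an exact upper limit of 0.397. Tnfsf10 (TRAIL) had 5, 2 and 2 counts in shChrebp and 14, 7 and 12 counts in shCtrl, a ratio per total count of 0.243 (95% exact interval 0.102 to 0.519). Without the filter, edgeR called all 3 lower, with adjusted p-values of 0.00496 for Cd40, 0.0212 for Tnfsf8 and 0.0304 for Tnfsf10. These 3 were chosen after their values were seen. Of 9 macrophage markers in tumors, 7 averaged under 1 FPKM, Lyz2 overlapped between the groups and Cd68 was lower in shChrebp. The part of these markers in the 3 differences was not tested. The other 21 members under the filter had 0 to 34 counts summed over a group.

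In choline BMDM 6 members were higher than in PBS BMDM and 4 were lower. CD40 and Fas rose most, together with the ligands Tnfsf9, Lta and Tnf and with TNFR2, while 4-1BB, RANK, TACI (Tnfrsf13b) and Tnfrsf23 fell. Of 33 members, 18 reached 1 FPKM in at least 3 libraries and were tested with limma on log2(FPKM + 0.1), a scale that understates the change of low genes. The members' share called was 55.6%, beside 57.4% of all 10028 genes tested, with 28.2% higher and 29.2% lower, so here too the share was near the background. Of the 15 untested members none averaged 1 FPKM in either group. Neutrophil markers summed to 11.5 to 14.8 FPKM with choline and 17.5 to 21.7 FPKM with PBS, nearly all of it S100a8. The macrophage markers summed to 4343 to 4738 FPKM with choline and 3236 to 3379 FPKM with PBS, most of it Lyz2. The part of these markers in the results was not tested.

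**Figure D2:**
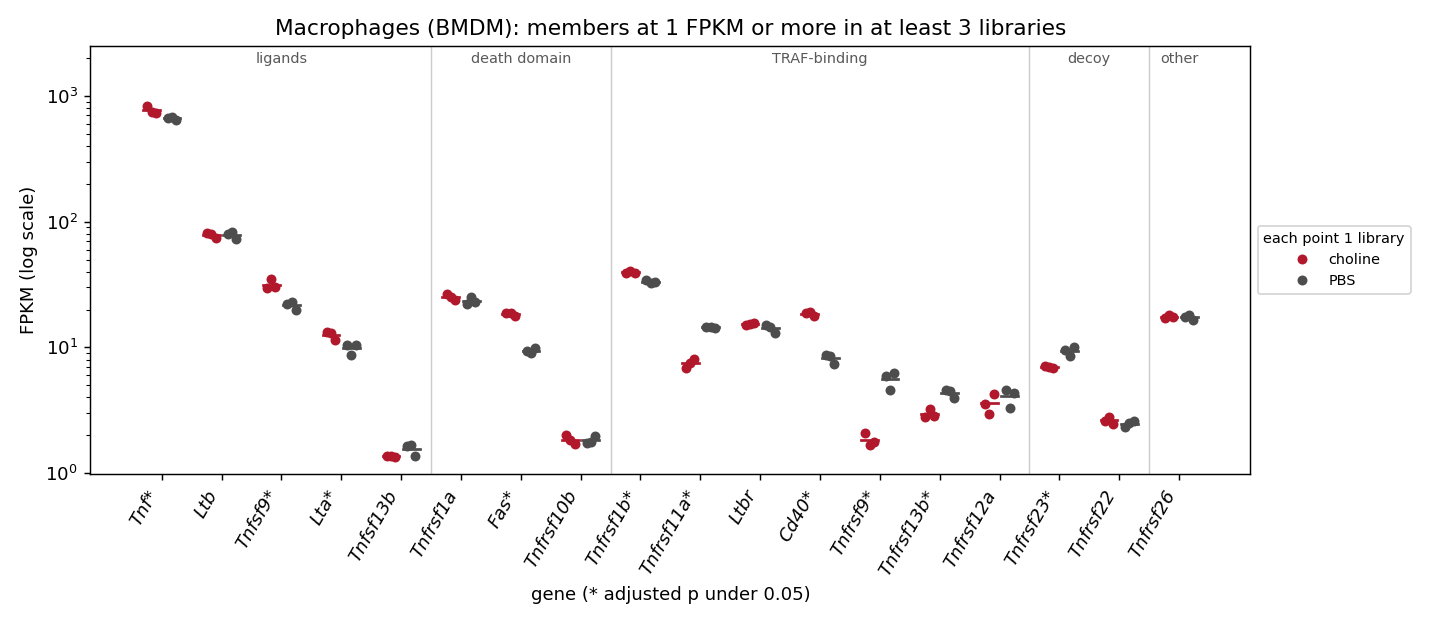
FPKM on a log scale of the 18 tested members in the 6 BMDM libraries, choline left of PBS, with each point 1 library and each line the mean of 3. Tnf, at a mean of 769 FPKM with choline and 664 FPKM with PBS, lies above all other members, and the groups of the asterisked genes (adjusted p under 0.05) do not overlap.

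The ligands of BMDM followed the order Tnf, Ltb, Tnfsf9, Lta and Tnfsf13b, in both groups and with no overlap between neighbours. Tnf, the cytokine that names the family, was at 826, 747 and 735 FPKM with choline, against 667, 676 and 650 FPKM with PBS. The choline libraries all lay above the PBS libraries, by a log2 fold change of 0.21 ± 0.05 (SE; limma adjusted p = 0.00296). Lta, lymphotoxin α, which as a homotrimer binds the TNF receptors, was at 13.3, 13.1 and 11.5 FPKM with choline and 10.5, 8.68 and 10.4 FPKM with PBS. Its log2 fold change was 0.35 ± 0.08 (SE; limma adjusted p = 0.00566). Ltb, which joins Lta in the membrane-bound ligand of Ltbr, averaged 78.4 ± 4.01 FPKM with choline and 78.1 ± 5.01 FPKM with PBS (SD, n = 3 each). It was not called, and its 95% interval on the log2 scale was −0.15 to 0.16.

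Tnfsf9, the 4-1BB ligand that activated macrophages show to T cells, was at 29.5, 35.2 and 30.1 FPKM with choline, against 22.1, 23.2 and 19.8 FPKM with PBS. The groups did not overlap, and the log2 fold change was 0.54 ± 0.08 (SE; limma adjusted p = 0.000275). Its receptor moved the other way. Tnfrsf9 (4-1BB) was at 2.09, 1.67 and 1.77 FPKM with choline, against 5.89, 4.60 and 6.20 FPKM with PBS, which in recovered reads is 174, 138 and 146 with choline and 491, 381 and 511 with PBS. The log2 fold change was −1.54 ± 0.12 (SE), 2.90-fold lower, with a limma adjusted p of 7.1e-06. Of 25 ligand and receptor pairs known to bind, 7 had both partners tested in BMDM, and this was the only one of the 7 whose partners were called in opposite directions. TNFR2 was higher together with both of its ligands Tnf and Lta. Tnfsf13b (BAFF), a B cell survival factor, averaged 1.36 FPKM with choline and 1.56 FPKM with PBS and was not called.

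Fas was the death-domain receptor that changed in BMDM. It was at 18.9, 18.6 and 17.8 FPKM with choline, against 9.35, 9.01 and 9.90 FPKM with PBS. The groups were far apart, with a log2 fold change of 0.96 ± 0.05 (SE), 1.95-fold higher, and a limma adjusted p of 6.67e-07. Tnfrsf1a (TNFR1) averaged 25.3 ± 1.30 FPKM with choline and 23.5 ± 1.52 FPKM with PBS (SD, n = 3 each), and the TRAIL receptor Tnfrsf10b 1.85 and 1.83 FPKM, and neither was called.

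Cd40 showed the largest rise of any tested member in BMDM. It was at 18.8, 19.1 and 17.7 FPKM with choline, against 8.64, 8.52 and 7.31 FPKM with PBS. The log2 fold change was 1.18 ± 0.07 (SE), 2.26-fold higher, with a limma adjusted p of 9.54e-07. TNFR2 (Tnfrsf1b), the most abundant receptor of the family in these cells, was at 39.2, 40.6 and 38.8 FPKM with choline, against 34.6, 32.3 and 33.2 FPKM with PBS. Its log2 fold change was 0.25 ± 0.04 (SE; limma adjusted p = 0.000848).

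RANK (Tnfrsf11a), through which macrophage precursors are driven to become osteoclasts, was at 6.80, 7.51 and 8.10 FPKM with choline, against 14.6, 14.6 and 14.3 FPKM with PBS. The groups did not overlap, and the log2 fold change was −0.95 ± 0.07 (SE), 1.93-fold lower, with a limma adjusted p of 2.37e-06. TACI (Tnfrsf13b), a receptor for BAFF and APRIL, was at 2.81, 3.20 and 2.85 FPKM with choline, against 4.58, 4.54 and 3.96 FPKM with PBS. Its log2 fold change was −0.55 ± 0.08 (SE; limma adjusted p = 0.000409). The decoy receptor Tnfrsf23 was at 7.10, 6.95 and 6.88 FPKM with choline and 9.51, 8.53 and 10.1 FPKM with PBS, a log2 fold change of −0.42 ± 0.07 (SE; limma adjusted p = 0.000505). Its near-identical neighbour Tnfrsf22 averaged 2.63 FPKM with choline and 2.47 FPKM with PBS and was not called, and how reads were shared out between the pair is uncertain. Ltbr, Tnfrsf12a and Tnfrsf26 were not called.

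**Figure D3:**
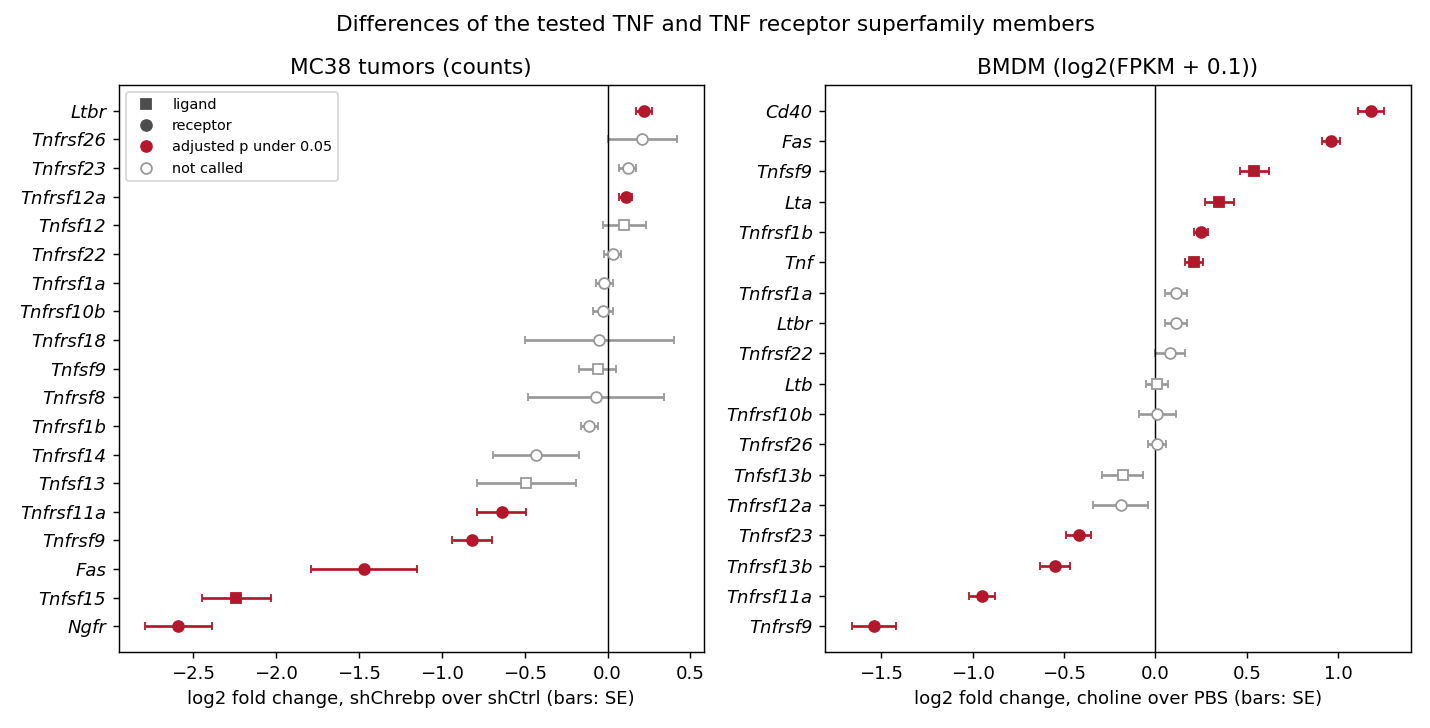
Log2 fold changes with their SE for the tested members, shChrebp over shCtrl tumors at left and choline over PBS BMDM at right, squares for ligands and circles for receptors, filled red at an adjusted p under 0.05. The tumor values run from −2.59 for Ngfr to 0.22 for Ltbr, and the BMDM values from −1.54 for Tnfrsf9 to 1.18 for Cd40.

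The tumor and BMDM comparisons share no library, and their tables were normalized separately, so changes are set side by side and levels are not. Of 12 members tested in both, 5 were called in tumors and 6 in BMDM, and 3 of them were called in both. Among all 8916 genes tested in both, 23.5% were called in both, so the overlap of the members was near the background. Of those genes 6.19% were lower in both and 5.11% lower in tumors and higher in BMDM. Tnfrsf9 was lower in both, by −0.82 on the log2 scale in shChrebp tumors and −1.54 in choline BMDM. Tnfrsf11a was likewise lower in both, by −0.64 and −0.95. Fas differed in direction, with −1.47 in shChrebp tumors and 0.96 in choline BMDM. Its shChrebp libraries alone would not have passed the tumor filter, and Fas was tested because of shCtrl, the group where it is high. Its tumor call is thus no support. Cd40, at 0 counts in shChrebp and not tested there, was higher in choline BMDM, and Tnfsf9 was called in BMDM only, its difference between the comparisons not being tested.

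**Figure D4:**
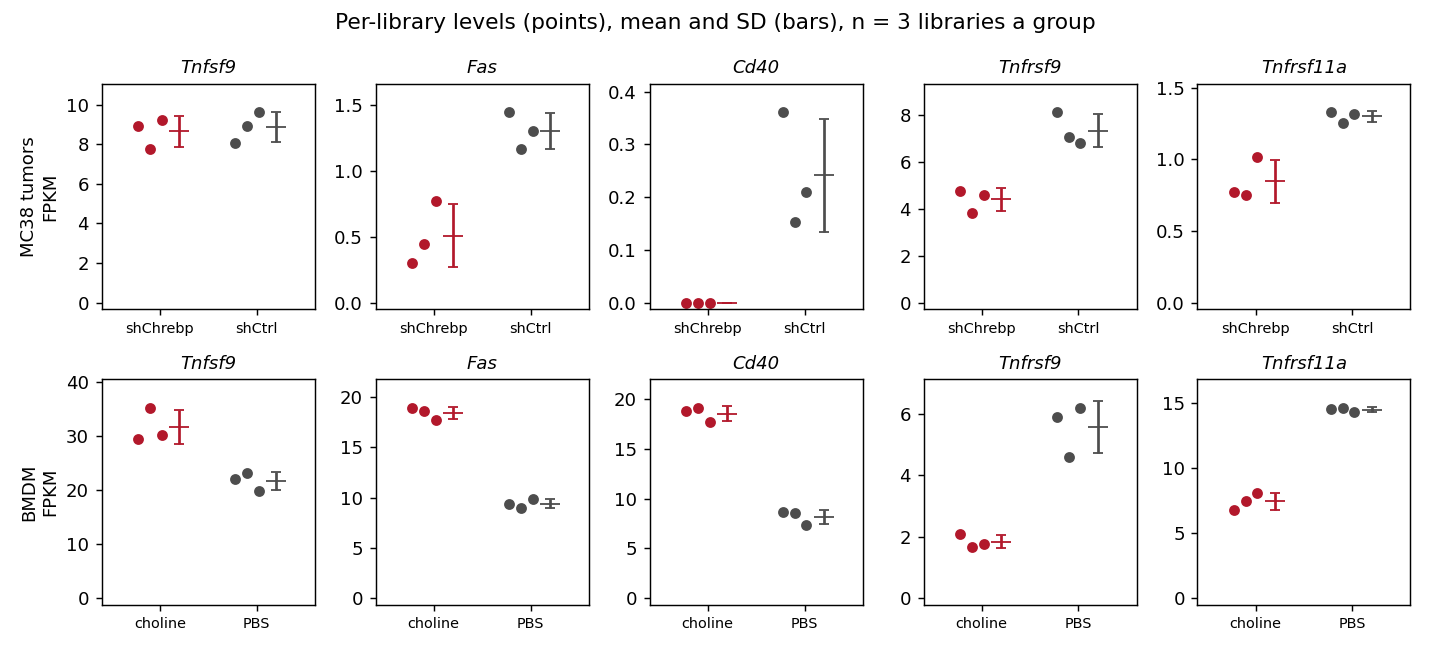
FPKM per library on linear axes from 0 for Tnfsf9, Fas, Cd40, Tnfrsf9 and Tnfrsf11a, with tumors in the upper row (shChrebp left, shCtrl right) and BMDM in the lower row (choline left, PBS right), each point 1 library and bars the mean ± SD. Tnfrsf9 and Tnfrsf11a are lower in shChrebp and in choline, while Fas is lower in shChrebp and higher in choline. In tumors Fas reached the filter's limit in 3 shCtrl but 2 shChrebp libraries, so it was tested because of shCtrl.

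The promoters of Ngfr, Tnfsf15 and Tnfrsf9 are shown because these are the 3 called members with the largest change in either comparison, Ngfr and Tnfsf15 in tumors and Tnfrsf9 in BMDM. They run from 250 bases before the start site to 50 after it, are read 5′ to 3′ on the gene's strand, and come from RefSeq on GRCm38.p6, while the deposited tables use another build. They were searched on both strands for the NF-κB site by name, the interferon-response core (GAAA, any 2 bases, GAAA), the GAS site TTCNNNGAA, the E-box CACGTG that basic helix-loop-helix factors bind, and the AP-1 site TGANTCA. Capitals mark the matches.
Ngfr, chr11:95587649-95587948, minus strand: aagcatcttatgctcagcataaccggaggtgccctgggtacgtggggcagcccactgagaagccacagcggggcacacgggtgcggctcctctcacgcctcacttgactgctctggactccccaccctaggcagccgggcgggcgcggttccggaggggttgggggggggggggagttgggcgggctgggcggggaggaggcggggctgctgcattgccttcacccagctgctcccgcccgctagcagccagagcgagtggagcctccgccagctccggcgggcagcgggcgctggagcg
Tnfsf15, chr4:63745010-63745309, minus strand: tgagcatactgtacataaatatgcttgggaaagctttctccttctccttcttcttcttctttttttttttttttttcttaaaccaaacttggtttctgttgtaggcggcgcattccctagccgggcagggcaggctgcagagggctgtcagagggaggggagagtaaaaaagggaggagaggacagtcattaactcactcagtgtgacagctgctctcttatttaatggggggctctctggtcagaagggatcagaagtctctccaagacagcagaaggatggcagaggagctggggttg
Tnfrsf9, downstream start, chr4:150927749-150928048, plus strand: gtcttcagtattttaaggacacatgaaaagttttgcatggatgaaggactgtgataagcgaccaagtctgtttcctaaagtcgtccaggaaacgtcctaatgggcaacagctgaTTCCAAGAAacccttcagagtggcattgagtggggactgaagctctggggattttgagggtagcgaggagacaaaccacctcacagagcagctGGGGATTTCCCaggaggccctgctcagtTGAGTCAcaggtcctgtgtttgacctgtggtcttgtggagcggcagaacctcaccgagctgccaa

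The Ngfr and Tnfsf15 windows held none of the 5 motifs. They differ in composition, with 71.7% G and C and 23 CpG in Ngfr, and 48.0% and 3 in Tnfsf15, beside medians of 52.7% and 7 over all promoters. The Tnfrsf9 window at its downstream start held overlapping NF-κB matches that begin 43 and 42 bases before the start, an AP-1 match that begins 15 bases before it and a GAS match that begins 136 bases before it. The other RefSeq start of Tnfrsf9, at chr4:150919905-150920204, held none. Of 32841 promoters of this length, 8.5% hold the NF-κB site, 7.8% AP-1, 8.3% GAS, 7.2% the E-box and 3.4% the interferon-response core. The 33 of 44 members with a RefSeq promoter have 37 such promoters. Of these 37, 4 hold the NF-κB site, 7 AP-1, 9 GAS, 6 the E-box and 4 the interferon-response core. The E-box stands in the promoters of Fas, Ltbr, Tnfrsf4, Tnfrsf8, Tnfrsf19 and Tnfrsf21. In shChrebp tumors Ltbr was higher, Fas lower and Tnfrsf8 not called, while Tnfrsf4, Tnfrsf19 and Tnfrsf21 were under the filter. Fas was tested because of its shCtrl libraries, so its call is no support. A part of the E-box in these values was not tested.

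Receptor-proximal genes encode the adaptors, kinases and ubiquitin ligases that carry the signal inside the cell. Of 26 tested genes of this list, 2 were higher and 9 lower in shChrebp tumors, with a median log2 fold change of −0.05, beside 0 over all genes. The share called in either direction, 42.3%, was near the 38.2% of all genes tested. By direction 7.69% were higher and 34.6% lower, beside 18.6% and 19.7% of all genes tested. Rnf31, the catalytic subunit of the linear ubiquitin ligase, averaged 6.71 ± 0.327 FPKM in shChrebp and 9.12 ± 0.241 FPKM in shCtrl (SD, n = 3 each), a log2 fold change of −0.45 ± 0.07 (SE; edgeR adjusted p = 3.68e-06). Also lower were the IκB kinase Ikbkb (−0.27), NIK (Map3k14, −0.35), cIAP2 (Birc3, −0.38), Traf1 (−0.39) and the necroptosis effector Mlkl (−0.14) on the log2 scale. Ripk3, the kinase that activates Mlkl, had 2 counts in shChrebp and 3 in shCtrl.

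In choline BMDM, 7 of 26 such genes were higher and 6 lower, with a median of 0.01. These are 26.9% and 23.1%, no more than the 28.2% higher and 29.2% lower among all genes tested. Traf1, a TRAF that NF-κB itself induces, averaged 58.8 ± 3.36 FPKM with choline and 34.2 ± 1.74 FPKM with PBS (SD, n = 3 each), a log2 fold change of 0.78 ± 0.05 (SE; limma adjusted p = 2.45e-06). Cflar, the inhibitor of caspase-8 activation, rose by 0.54 ± 0.04 and Tab2 by 0.41 ± 0.04. The necroptosis genes Ripk3, Ripk1 and Mlkl fell, by 0.60, 0.50 and 0.30 on the log2 scale. Casp8 averaged 24.4 and 23.7 FPKM with choline and PBS and was not called.

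Of 22 tested NF-κB factors, inhibitors and target genes, 2 were higher and 17 lower in shChrebp tumors, with a median log2 fold change of −0.38. The shares were 9.09% higher and 77.3% lower, beside 18.6% and 19.7% of all genes tested. The list was chosen with earlier results of these data known, so this contrast is descriptive and no independent support. One of the 17, Mmp9, reached the filter's limit in 3 shCtrl libraries and 1 shChrebp library, so it was tested because of shCtrl. Nfkbiz, an atypical IκB that NF-κB induces, averaged 9.86 ± 0.690 FPKM in shChrebp and 22.0 ± 1.20 FPKM in shCtrl (SD, n = 3 each), a log2 fold change of −1.17 ± 0.06 (SE; edgeR adjusted p = 5.35e-17). Ptgs2 (cyclooxygenase-2) averaged 47.1 FPKM in shChrebp and 84.2 FPKM in shCtrl, and Vcam1, an adhesion molecule, 43.2 FPKM in shChrebp and 73.1 FPKM in shCtrl. Cxcl1, a neutrophil chemokine, averaged 7.49 ± 1.68 FPKM in shChrebp and 58.4 ± 4.10 FPKM in shCtrl (SD, n = 3 each), with edgeR adjusted p-values of 1.33e-19 for Ptgs2, 2.25e-15 for Vcam1 and 5.13e-11 for Cxcl1. Ccl2 and Csf1 were lower by −1.13 and −0.82 on the log2 scale. Of 9 macrophage markers in tumors, 7 averaged under 1 FPKM, Lyz2 overlapped between the groups and Cd68 was lower in shChrebp. The part of these markers in the differences of the list was not tested. The 2 higher genes were Tnfaip2 (0.14) and Zfp36 (0.34), which encodes an RNA-binding protein that destabilizes Tnf mRNA.

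In choline BMDM, 14 of 24 tested genes of the same list were higher and 2 lower, with a median of 0.16. The shares were 58.3% higher and 8.33% lower, beside 28.2% and 29.2% of all genes tested. The choice of the list with earlier results known limits this contrast in the same way. Cxcl2, a neutrophil chemokine, averaged 2710 ± 58.7 FPKM with choline and 1830 ± 26.0 FPKM with PBS (SD, n = 3 each), a log2 fold change of 0.56 ± 0.03 (SE; limma adjusted p = 6.09e-07). Csf1, which sustains macrophages, averaged 2.08 FPKM with choline and 0.331 FPKM with PBS (log2 fold change 2.35 ± 0.15). It reached the filter's 1 FPKM only in the choline libraries, so it passed only through the group where it is high and its call is no support. Leaving it out, 13 genes of the list were higher. Nfkbiz rose by 0.57 ± 0.04 and Sod2, the mitochondrial superoxide dismutase, by 0.43 ± 0.04. Lower were Ier3 (−0.69) and Ccl2 (−0.40).

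Of 20 genes of this list tested in both tables, 11 were called in both, beside 23.5% of the 8916 genes tested in both. Of these, 8 were lower in shChrebp tumors and higher in choline BMDM: Csf1, Nfkbiz, Relb, Tnfaip3, Nfkbie, Nfkb2, Sod2 and Nfkb1, beside 5.11% of all genes. Csf1 passed the BMDM filter only through its choline libraries, which leaves 7 others. Since the list was chosen with earlier results known, these counts too are descriptive. Ccl2 and Ier3 were lower in both, and Tnfaip2 was higher in both. Tnfaip3, which encodes the ubiquitin-editing brake A20, averaged 3 FPKM in shChrebp and 4.82 FPKM in shCtrl, and 46.6 FPKM with choline and 34.3 FPKM with PBS. Of 25 receptor-proximal genes tested in both, 4 were called in both, under the share over all genes, with Traf1 and Birc3 lower in shChrebp tumors and higher in choline BMDM, and Mlkl and Traf4 lower in both. Traf4 reached the BMDM filter's 1 FPKM in 3 PBS and 2 choline libraries, so its choline group alone would not have passed. The genes named for being called in both comparisons, and Zfp36, Ripk3, Casp8 and Tnfaip3, were chosen after their values were seen.

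**Figure D5:**
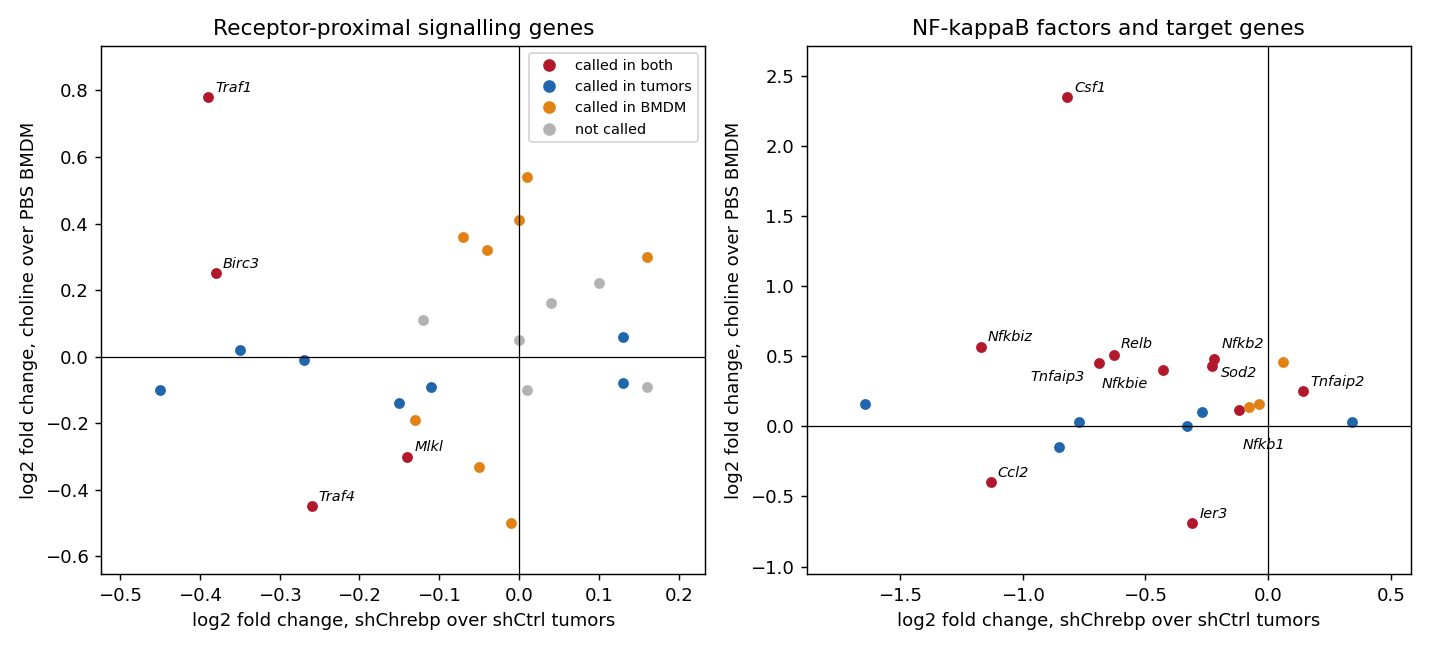
Each point is 1 gene, placed by its log2 fold change in shChrebp over shCtrl tumors (horizontal) and in choline over PBS BMDM (vertical), for receptor-proximal signalling genes at left and NF-κB factors and targets at right, coloured by where the adjusted p was under 0.05. Of the 11 labelled genes at right, 8 lie at the upper left, lower in shChrebp tumors and higher in choline BMDM.

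Genes that release or restrain the family's ligands and receptors changed in small steps. Of 7 tested in tumors, 2 were higher and 2 lower in shChrebp, or 57.1% called beside 38.2% of all genes. Timp3, the tissue inhibitor that blocks the TNF-converting enzyme ADAM17, averaged 248 ± 2.55 FPKM in shChrebp and 302 ± 5.20 FPKM in shCtrl (SD, n = 3 each), a log2 fold change of −0.29 ± 0.03 (SE; edgeR adjusted p = 8.47e-10). Adam17 itself differed by −0.18, Adam10 by 0.14 and Furin by 0.29 on the log2 scale. In choline BMDM, 2 of 6 were higher and 2 lower, or 66.7% called beside 57.4% of all genes. Adam17 averaged 112 ± 2.30 FPKM with choline and 84.1 ± 0.993 FPKM with PBS (SD, n = 3 each), a log2 fold change of 0.41 ± 0.03 (SE; limma adjusted p = 8.9e-06), and Adam10 rose by 0.22. Frmd8, which stabilizes the iRhom that carries ADAM17 to the surface, fell by 0.58 and Furin by 0.14.

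Of the family's receptors that the symbol rule does not take, Eda2r, the receptor of ectodysplasin A2, averaged 8.50 ± 0.263 FPKM with choline and 2.11 ± 0.201 FPKM with PBS (SD, n = 3 each). Its log2 fold change of 1.96 ± 0.08 (SE; limma adjusted p = 1.25e-07) was larger than that of any member in BMDM. In tumors Eda2r averaged 0.413 FPKM in shChrebp and 0.624 FPKM in shCtrl and was not called, nor was Relt.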

How the data were processed

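Total RNA was extracted with TRIzol and sequenced from libraries made with a VAHTS Universal V6 kit, as the labels' protocols state. Per the submitters' processing notes reads were placed on GRCm39. The aligner and counter were not given in the sources used here. The tumor table that the authors deposited holds, per the file headers, estimated counts and FPKM for each Ensembl gene. Of its counts 92.0% are whole, and all were rounded before testing. The deposited BMDM table names no unit in its header and was taken as FPKM from its values: 19494 of 19496 rows are whole reads at 1 gene length within a tolerance of 0.02 reads, which gave the recovered reads.

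Tumor genes took their names from Ensembl identifiers (22219 of 22274 matched), since at least the Mlxipl and S1pr3 symbols of the deposited table do not match their identifiers. BMDM genes were named by deposited symbol, and 2 rows, the fragments of a Rab30 row broken over 2 lines, were left out. Of the 3 PBS columns, 2 carry the same heading, so these libraries are called a and b. Tumors were tested with edgeR 4.0.16 (quasi-likelihood, TMM, filterByExpr; R 4.3.3) and BMDM with limma-trend 3.58.1 on log2(FPKM + 0.1) after keeping genes that reached 1 FPKM in 3 or more libraries. P-values were adjusted by Benjamini-Hochberg over all genes tested, with a threshold of 0.05. Alternatives, which include DESeq2 1.42.0 and leaving out each library, are given in the closing section. No protein sequences were used here. Floors are 3 counts over a group, and exact intervals of summed counts cover counting error only.

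The members and the gene lists were chosen with earlier results of these data known. Values per library are given for called members with a mean of at least 1 FPKM in either group, and other members by range. Of each pathway list, up to 6 called genes with the smallest adjusted p are named, as are promoters of the 3 called members with the largest change.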

Additional observations from a re-analysis of the deposited data

How the results depend on the processing

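Of the 7 tumor calls, 6 held in every alternative that tested the gene, and Tnfrsf12a was lost without shChrebp 3 or shCtrl 2. Calls among tumor members numbered 7 to 9 when 1 library was left out, 9 without shCtrl 1, the library with high epithelial markers. Those 9 were of 21 tested, beside 4334 of 11896 genes in all. Without the count filter there were 11 of 38 tested, beside 4819 of 16918 genes in all, so this share too was near the background. Cd40, Tnfsf8 and Tnfsf10 were then tested and called lower. Tnfrsf23, tested with the filter too, was then called higher, its edgeR adjusted p moving from 0.0635 to 0.0306. All 10 BMDM calls held in all 11 alternatives, with 10 or 11 calls among members. The 11 came without the filter (of 33 tested, beside 5490 of 19496 genes in all) and without PBS a (of 18, beside 5124 of 9951). Tumor pathway calls ranged from 28 to 35 and BMDM pathway calls from 31 to 40. The 28 were of 57 tested, without shCtrl 2, beside 3773 of 11939 genes in all. The 40 were of 60 tested, with edgeR on recovered reads, beside 6425 of 12271.

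With the replicate block, 7 of 19 tumor members and 35 of 57 pathway genes were called, against 7 and 34 without it. Over all 11780 genes, 4640 were called with the block and 4505 without it. Same-numbered tumor libraries did not deviate together (correlations 0.058, −0.064 and −0.025), so the numbers do not pair them. For BMDM no paired analysis was possible because 2 PBS columns carry no number of their own.

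Differences near 0 that were not called changed sign. On the log2 scale, tumor Tnfrsf18 was 0.05 with the replicate block and tumor Tnfrsf1a 0 without the filter, and BMDM Tnfrsf10b was −0.02 after quantile normalization. With 1 library left out, tumor Tnfrsf18 ranged from −0.41 to 0.51, Tnfrsf1a from −0.04 to 0.01, Tnfrsf22 from −0.02 to 0.06, Tnfrsf8 from −0.30 to 0.26 and Tnfsf9 from −0.11 to 0.02. BMDM Ltb then ranged from −0.04 to 0.05, Tnfrsf10b from −0.05 to 0.07 and Tnfrsf26 from −0.02 to 0.04. The cause was not tested. Of the tumor ligands 13 of 17 stood under 1 FPKM in both groups, and the filter left 13 of them untested.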
